A study of Mus musculus with 6 samples.

Results

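A group of 9 cytokine receptor genes, through which growth factors and inflammatory cytokines reach myeloid and stem cells, was followed in mouse LKS+ cells, blood-forming stem and progenitor cells that lack lineage markers, carry high c-Kit and display Sca-1. The 9 genes are Csf1r, Csf2ra, Csf2rb, Csf2rb2, Csf3r, Il3ra, Il6ra, Il6st and Il1r1. They were taken by name, with earlier results of these data known. All 9 of 9 were on the array, among 18193 genes that had a probe set annotated to exactly 1 symbol. They were read by 18 such probe sets, and the brightest probe set of a gene by its mean over all arrays stands for that gene. Affymetrix Mouse Genome 430 2.0 arrays were hybridised with linearly amplified RNA of sorted LKS+ cells, 3 from wild-type (WT) animals and 3 from Apcmin animals. In the Apcmin strain, 1 copy of Apc holds the Min nonsense mutation, and the Apc protein helps to degrade beta-catenin. The mutation is inherited, so other tissues of the animal carry it as well as the sorted cells. The labels used here give no age, sex or treatment, and each array was counted as a separate mouse, without animal identifiers in the labels. If any arrays share an animal, p-values measure only the spread between these samples. The series title describes altered stem cell function in this strain and its use to model MPD/MDS (myeloproliferative and myelodysplastic disease).

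In background terms, these receptors fall into 3 structural families. Csf1r is a receptor tyrosine kinase that binds CSF-1 (M-CSF) and IL-34 and drives monocyte and macrophage development. Csf2ra, Il3ra, Csf2rb, Csf2rb2, Csf3r, Il6ra and Il6st are class I cytokine receptors, which have no kinase of their own and signal through bound Jak kinases and Stat factors. In that class, an alpha chain (Csf2ra for GM-CSF, Il3ra for IL-3, Il6ra for IL-6) gives ligand specificity and a shared chain (Csf2rb or Il6st) carries the signal, whereas Csf3r, the G-CSF receptor, signals as a pair of identical chains. Mice also have Csf2rb2, a close copy of Csf2rb that serves IL-3 alone. Il1r1 belongs to the IL-1 receptor family, which signals through Myd88 and NF-kB, and IL-1 is known to push stem cells toward myeloid output.

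The receptor promoters are shown because PU.1 (encoded by Spi1) and C/EBP factors are textbook regulators of myeloid receptor genes and their transcripts were measured here. RefSeq promoter sequences of the GRCm38.p6 build were used for 7 of the 9 genes, as 8 entries because Il1r1 has 2. Receptor entries on 1 chromosome were left out before the search, a filter not applied to the promoters of other genes. No entry of Csf1r or Csf2rb was among those searched, and a receptor may lack one here because of that filter. The counts over the 8 entries therefore do not describe Csf1r and Csf2rb. The 250 bases before each start site were searched on both strands. The letters searched were GAGGAA (reverse complement TTCCTC, the PU.1 core), TTNNGNAA (reverse complement TTNCNNAA, C/EBP) and TTCNNNGAA (STAT, its own reverse complement). GAGGAA was present in 4 of the 8 entries and in 23.3% of 32851 promoter entries of the same length, TTNNGNAA in 5 of 8 and 36.8%, and TTCNNNGAA in 1 of 8 and 7.02%. The 5 entries with TTNNGNAA include both of Il1r1. The 4 sequences that hold GAGGAA are printed 5′ to 3′ on the strand of the gene, with matches to any of the 3 motifs in capitals.
Csf3r (chr4:126024409-126024658, plus strand): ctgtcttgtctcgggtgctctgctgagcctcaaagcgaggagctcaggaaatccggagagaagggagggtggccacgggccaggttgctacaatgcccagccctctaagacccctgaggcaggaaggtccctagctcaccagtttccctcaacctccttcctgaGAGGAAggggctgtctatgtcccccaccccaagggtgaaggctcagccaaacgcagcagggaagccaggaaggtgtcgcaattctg
Csf2ra (chr19:61228419-61228668, minus strand): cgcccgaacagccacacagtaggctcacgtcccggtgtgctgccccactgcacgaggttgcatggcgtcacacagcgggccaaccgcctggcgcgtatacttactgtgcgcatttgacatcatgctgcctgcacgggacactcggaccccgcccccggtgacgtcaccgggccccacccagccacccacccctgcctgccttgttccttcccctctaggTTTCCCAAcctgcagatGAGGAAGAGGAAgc
Il6ra (chr3:89913197-89913446, minus strand): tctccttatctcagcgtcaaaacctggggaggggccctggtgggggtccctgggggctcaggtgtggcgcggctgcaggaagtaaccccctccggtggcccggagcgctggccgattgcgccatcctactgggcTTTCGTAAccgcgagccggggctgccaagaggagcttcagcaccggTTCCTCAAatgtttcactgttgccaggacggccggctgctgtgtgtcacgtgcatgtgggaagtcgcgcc
Csf2rb2 (chr15:78305722-78305971, minus strand): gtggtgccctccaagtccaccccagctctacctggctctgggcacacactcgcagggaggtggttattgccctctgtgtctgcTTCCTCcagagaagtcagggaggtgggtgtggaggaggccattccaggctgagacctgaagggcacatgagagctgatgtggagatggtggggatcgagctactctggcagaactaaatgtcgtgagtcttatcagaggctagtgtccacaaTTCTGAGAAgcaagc
In Csf2ra, 2 copies of GAGGAA followed each other directly, 14 to 3 bases before the start. The Csf3r copy lay 86 to 81 bases before the start. In Il6ra the match TTCCTC was part of TTCCTCAA, which also fits the C/EBP letters on the reverse strand. Csf2rb2 held TTCCTC and, 15 to 7 bases before the start, the STAT letters as TTCTGAGAA. A match describes the letters only and is not a measured binding site.

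All 9 receptors gave a signal in LKS+ cells of both genotypes. The 6-array mean log2 intensity ran from 6.28 for Il3ra to 9.24 for Il1r1, and each gene stood between the 54.7 and 87.3 percentile of the 18193 genes. A log2 intensity of 6 is used below as a mark of brightness, which 47.6% of genes reached. For scale, 35 genes of unrelated tissues such as liver, heart and lens had a median of 3.09, and 32 of them lay under 6. The brightest of those, Cela1 at 7.96 and Ddx4 at 6.70, were above several receptors, so the mark is no proof of expression. No detection call was used here. Of the markers of the sorted population, Kit, Cd34 and Flt3 had means of 9.83, 10.94 and 10.04. Lineage signal was not absent. Of 15 mature neutrophil and macrophage markers, 6 had a mean of at least 6. Among these were the granule and calprotectin genes S100a9 (12.00), S100a8 (11.36), Camp (9.59) and Ngp (9.02). The rest of that list lay between 2.63 (Adgre1) and 5.91 (Vcam1). Of 12 granulocyte and monocyte progenitor markers, 9 had a mean of at least 6, and the list median was 9.76. Mpo (12.17) and Ctsg (11.83) were the brightest of these markers, and Itgam (2.70) was the dimmest. Of 15 lymphoid markers 3 had a mean of at least 6, namely Dntt (11.27), Nkg7 (10.87) and Cd79b (7.99), while Cd3d (2.88) was dim. The part of such signal in the receptor values was not tested. Fewer cells that express a gene and less RNA of it per cell cannot be told apart in these bulk samples.

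In order of probe set signal, Il1r1 (9.24) and Csf2rb (9.09) came first, followed by Csf1r (8.33), Il6st (7.96), Csf3r (7.64), Il6ra (7.59), Csf2ra (7.49), Csf2rb2 (6.49) and Il3ra (6.28). This is an order of probe set intensities and not of transcript numbers, since probe sets differ in how strongly they bind their target. Of the 8 neighbouring pairs in the order, 7 had 6-array ranges that overlapped. The exception was Csf2rb above Csf1r, a gap of 0.76 that held on 6 of 6 arrays. Csf3r and Il6ra differed by 0.04, with Csf3r the brighter on 2 of 6 arrays. When all probe sets of a gene were averaged in place of using the brightest, 6 of the 9 receptors had a mean of at least 6, and Il6ra, Il6st and Il1r1 were at 5.89, 5.43 and 5.06.

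**Figure D1:**
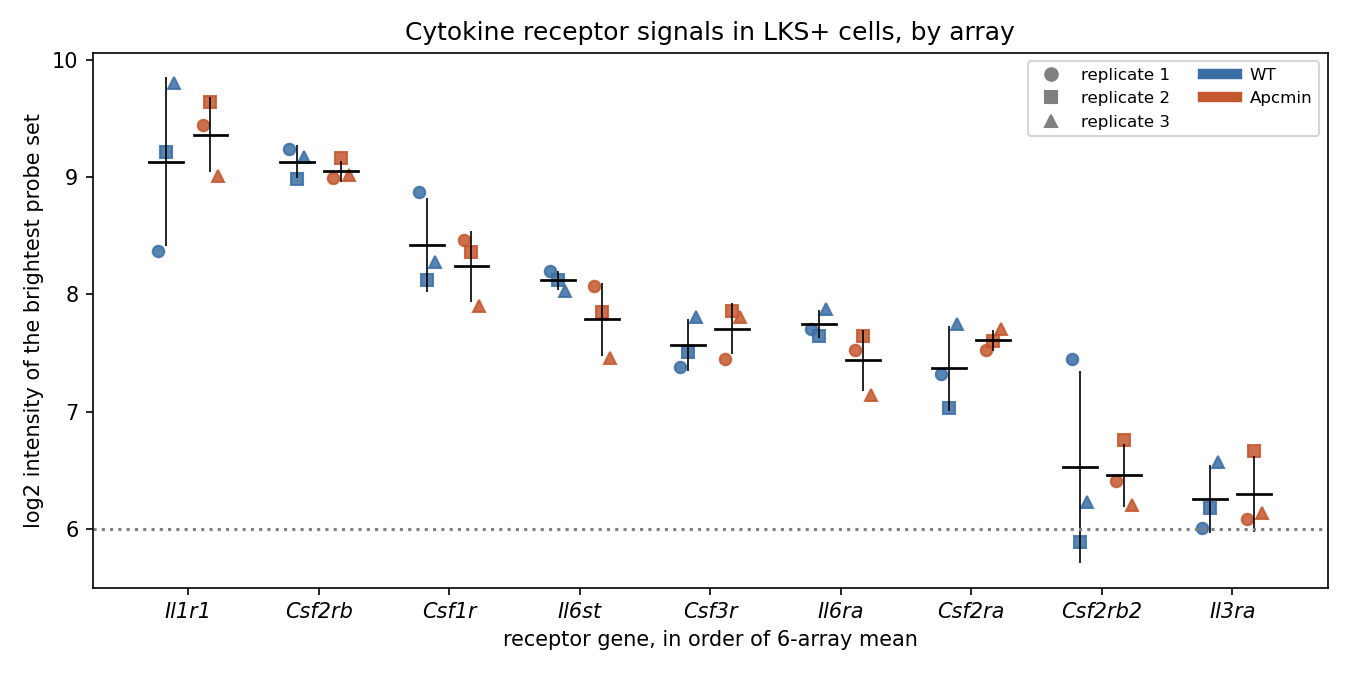
Log2 intensity (vertical axis) of the brightest probe set of each receptor gene (horizontal axis, in order of the 6-array mean), with WT arrays in blue and Apcmin arrays in orange. Symbols mark the replicate, horizontal bars the group mean, vertical lines 1 SD over 3 arrays, and the dotted line a log2 intensity of 6. WT replicate 1 is the lowest Il1r1 value (8.37) and the highest Csf2rb2 value (7.45), and the 2 genotypes overlap for each gene.

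No receptor passed the test between genotypes. In limma, 0 of the 18 receptor probe sets had an adjusted p under 0.05, where the share over all 45037 probe sets was 0%. At an unadjusted p under 0.05 it was also 0 of 18, against 3.81% of all probe sets. The 3 Apcmin values lay wholly above or below the 3 WT values in 0 of 9 genes, against 7.73% of all genes and 7.63% of the genes with a mean of at least 6. A difference of 2-fold or more was likewise seen in 0 of 9 receptors, against 0.583% of all genes. Apcmin had the higher mean for 4 of the 9 genes and the lower mean for 5. A lower mean was found in 57% of all genes and in 43.7% of the 8658 genes with a mean of at least 6. The median difference, Apcmin minus WT on the log2 scale, was -0.06 over the receptors, -0.04 over all genes and 0.02 over the genes with a mean of at least 6. The median size of the difference, whatever its sign, was 0.18 for the receptors and 0.11 for genes with a mean of at least 6. The half-width of the 95% confidence interval ran from 0.35 for Csf2rb to 0.96 for Csf2rb2 with 3 arrays a group. These intervals are for single genes without adjustment. Their half-width is therefore not the smallest difference that the adjusted test could detect.

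**Figure D2:**
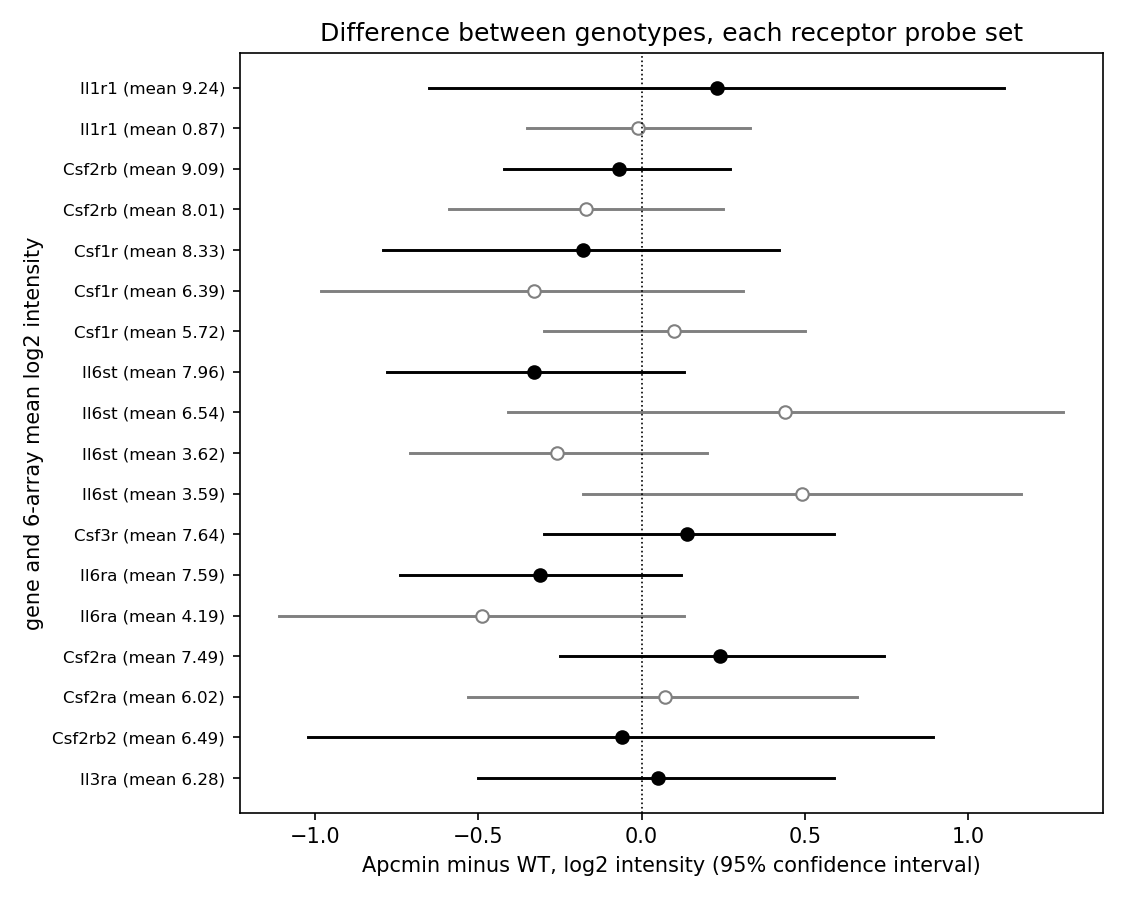
Difference in log2 intensity between Apcmin and WT (horizontal axis) for each of the 18 receptor probe sets (vertical axis, with the gene and the 6-array mean). Filled points are the probe sets that stand for a gene, open points the others, and lines the 95% confidence intervals from limma. All 18 intervals include 0, and the 4 Il6st probe sets lie on both sides of it.

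Csf1r, the receptor of CSF-1, marks monocyte-directed progenitors. It was at 8.87, 8.12 and 8.28 in WT and at 8.46, 8.36 and 7.90 in Apcmin. WT replicate 1 was the highest and Apcmin replicate 3 the lowest, with the other arrays of both groups between them. The means were 8.42 ± 0.40 (SD, n = 3) and 8.24 ± 0.30, which differed by -0.18 (SE 0.25; limma, adjusted p = 0.956). Without WT replicate 1 the difference was 0.04, so its direction rested on that array. A further Csf1r probe set, with a mean of 6.39, was likewise highest on WT replicate 1 (7.03) and lowest on Apcmin replicate 3 (5.88), and differed by -0.33. The dimmest, with a mean of 5.72, did not follow them and differed by 0.10.

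The GM-CSF receptor alpha chain, Csf2ra, was higher on average in Apcmin, and the difference did not pass. It was at 7.32, 7.03 and 7.75 in WT and at 7.53, 7.60 and 7.71 in Apcmin. The Apcmin arrays lay close together, inside the range of the WT arrays, of which replicates 1 and 2 were the lowest of the 6. The means were 7.37 ± 0.36 (SD, n = 3) and 7.61 ± 0.09, which differed by 0.24 (SE 0.21; limma, adjusted p = 0.954), or 1.18-fold. The sign was the same in each of the 14 alternatives, but the size was not, with 0.07 without WT replicate 2 and 0.43 without WT replicate 3. The other Csf2ra probe set differed by 0.07.

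Il3ra, the IL-3 receptor alpha chain, was the dimmest of the group. Its values were 6.01, 6.18 and 6.57 in WT and 6.09, 6.67 and 6.14 in Apcmin. One array of each genotype, WT replicate 3 and Apcmin replicate 2, stood above the other 4. The means were 6.26 ± 0.29 (SD, n = 3) and 6.30 ± 0.32, a difference of 0.05 (limma, adjusted p = 0.986), which became -0.08 without WT replicate 1 and -0.14 without Apcmin replicate 2. The arrays with the higher Il3ra signal were also the ones with the least erythroid signal. The summed intensity of 8 erythroid markers was 6469 on WT replicate 3 and 6627 on Apcmin replicate 2, and 7792 or more on each of the other 4 arrays. Epor, the erythropoietin receptor, was at 4.91 and 5.06 on those arrays and at 6.17 or more on the others. The pattern was not particular to Il3ra or to erythroid markers. WT replicate 3 and Apcmin replicate 2 also had the highest sums of the stem and progenitor markers, 10254 and 9928. They had the highest Il1r1 values too, 9.80 and 9.64. The part of such variation in the Il3ra values was not tested.

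Csf2rb, the beta chain shared by GM-CSF, IL-3 and IL-5, was the steadiest receptor. It was at 9.24, 8.98 and 9.17 in WT and at 8.99, 9.16 and 9.02 in Apcmin, and the groups overlapped throughout. The means were 9.13 ± 0.14 (SD, n = 3) and 9.05 ± 0.09, a difference of -0.07 with a 95% confidence interval from -0.42 to 0.27 (limma, adjusted p = 0.966). Leaving out 1 array gave -0.15 to -0.02. Its other probe set, with a mean of 8.01, differed by -0.17. The range over the 6 arrays was 0.26 on the log2 scale, or 1.20-fold, and the within-group SD of 0.12 lay at the 23.2 percentile of genes with a mean of at least 6.

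Csf2rb2, the IL-3-specific copy, was the most variable. It was at 7.45, 5.89 and 6.23 in WT and at 6.41, 6.76 and 6.21 in Apcmin. WT held both the highest and the lowest value, and WT replicate 1 stood 0.96 above the mean of the 6 arrays. The range of 1.56 on the log2 scale, or 2.94-fold, compares with 0.86 over the other 5 arrays. The within-group SD of 0.61 was at the 98.4 percentile of genes with a mean of at least 6. The genotypes differed by -0.06 (limma, adjusted p = 0.990), which became 0.40 without WT replicate 1 and 0.06 without Apcmin replicate 3. The 2 beta chain genes are neighbours in the RefSeq table of GRCm38.p6, with no protein-coding gene between them, and 1 probe set is annotated to both. That shared probe set read between 5.26 and 5.39 on all 6 arrays and did not follow Csf2rb2. Signal shared between such close copies was not tested, and the values of both genes are uncertain to that extent.

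Csf3r, the G-CSF receptor of the neutrophil lineage, was read by a single probe set. It was at 7.38, 7.51 and 7.81 in WT and at 7.45, 7.86 and 7.81 in Apcmin. Each genotype had arrays at both ends of the range, and Apcmin replicate 2 was the highest. The means were 7.57 ± 0.22 (SD, n = 3) and 7.71 ± 0.22, which differed by 0.14 (SE 0.19; limma, adjusted p = 0.956). The sign was the same in all 14 alternatives, although the difference was 0.05 without WT replicate 1 and 0.27 without WT replicate 3 or without Apcmin replicate 1.

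Both IL-6 receptor chains were lower on average in Apcmin by their brightest probe sets, and neither difference passed. Il6ra, which binds IL-6, was at 7.71, 7.65 and 7.88 in WT and at 7.53, 7.65 and 7.14 in Apcmin. Apcmin replicates 1 and 3 lay below the 3 WT arrays, and Apcmin replicate 2 was level with WT replicate 2. The means were 7.75 ± 0.12 (SD, n = 3) and 7.44 ± 0.26, which differed by -0.31 (SE 0.18; limma, adjusted p = 0.954), or 0.809-fold. The other Il6ra probe set, much dimmer with a mean of 4.19, differed by -0.49. Over the 14 alternatives the adjusted p of Il6ra in limma was 0.648 or more, and the difference was -0.16 without Apcmin replicate 3 and -0.41 without Apcmin replicate 2.

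Il6st encodes gp130, the signalling chain that IL-6 shares with LIF, oncostatin M and IL-11. Its brightest probe set was at 8.20, 8.12 and 8.03 in WT and at 8.07, 7.85 and 7.46 in Apcmin. Apcmin replicate 1 lay within the WT values and the other Apcmin arrays below them, with replicate 3 the lowest. The means were 8.12 ± 0.08 (SD, n = 3) and 7.79 ± 0.31, which differed by -0.33 (SE 0.19; limma, adjusted p = 0.954). Without Apcmin replicate 3 the difference was -0.16, and without Apcmin replicate 1 it was -0.47. The 3 other probe sets did not share 1 direction. One with a mean of 6.54 was at 6.31, 5.57 and 7.07 in WT and at 6.70, 6.88 and 6.69 in Apcmin, a difference of 0.44, and the dimmest differed by 0.49. The remaining probe set, with a mean of 3.62, differed by -0.26. The mean over all 4 turned the sign for Il6st, to 0.09. A difference of 0.3 or more in either direction was found in 10.5% of the genes with a mean of at least 6, and Il6ra and Il6st were the receptors of that size.

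Il1r1, the signalling receptor for IL-1, was bright and variable. It was at 8.37, 9.21 and 9.80 in WT and at 9.44, 9.64 and 9.01 in Apcmin. WT again held both ends of the range, with replicate 1 lowest and replicate 3 highest. The means were 9.13 ± 0.72 (SD, n = 3) and 9.36 ± 0.32, a difference of 0.23 with a 95% confidence interval from -0.65 to 1.11 (limma, adjusted p = 0.958). Without WT replicate 1 it was -0.14, and without WT replicate 3 it was 0.57. The within-group SD of 0.56 was at the 97.8 percentile of genes with a mean of at least 6. The other Il1r1 probe set was at the bottom of the intensity scale, between 0.76 and 0.99 on all arrays, and gave no information on the gene.

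Spread within a genotype was wide, and 8 of the 9 receptors had a within-group SD above the median of 0.18 for genes with a mean of at least 6. WT replicate 1 was the highest array for 4 receptors (Csf2rb, Csf1r, Il6st and Csf2rb2) and the lowest for 3 (Il1r1, Csf3r and Il3ra). Over the 8658 genes with a mean of at least 6 it was the highest array for 18.7% and the lowest for 28%, the largest share of lowest values among the 6 arrays. This array was also at an end of the range for some marker lists, as other arrays were too. Its 15 mature neutrophil and macrophage markers summed to 6947, against 8000 to 10528 on the other arrays, and its 10 stem and progenitor markers to 8298, against 8925 to 10254. Its 12 granulocyte and monocyte progenitor markers summed to 18140, the highest of the 6. WT replicate 2 had the highest mature neutrophil and macrophage sum (10528). Apcmin replicate 3 had the lowest lymphoid sum, 3814 against 4797 to 5457 on the other arrays. The sums are of linear intensities, so the brightest genes weigh most. Whether cell composition had a part in the receptor values of WT replicate 1 was not tested. Apcmin replicate 3 was the lowest array for Csf1r, Il6st and Il6ra.

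**Figure D3:**
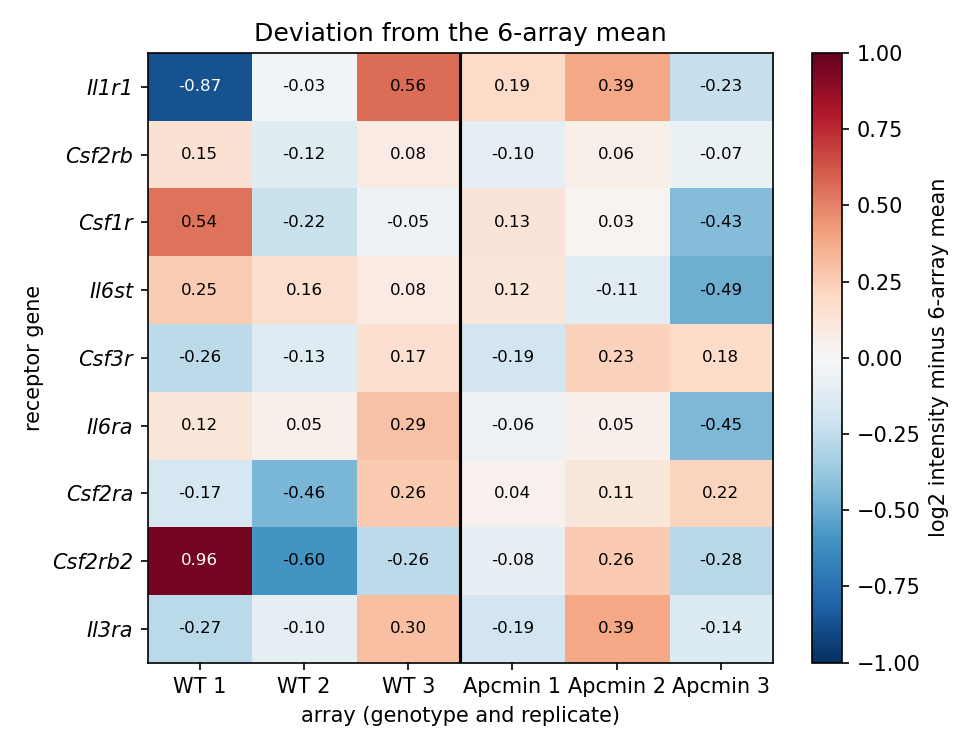
Log2 intensity minus the 6-array mean (colour and printed value) for each receptor gene (rows) on each array (columns; the line divides WT from Apcmin). WT replicate 1 holds the extremes, 0.96 for Csf2rb2 and -0.87 for Il1r1, and the 3 Il6ra values above the mean in WT are 0.29, 0.12 and 0.05, with one Apcmin value level with the last of these.

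Genes whose pattern over the 6 arrays was nearest to the 3 most variable receptors were sought among the genes with a mean of at least 6, by the root mean square difference of log2 values centred on each gene's mean. Nearest to Csf2rb2 were Hoxb4 (0.14), a homeobox factor of stem cells, Saysd1 (0.17) and Slc25a14 (0.19). Hoxb4 was at 7.84 on WT replicate 1 and between 6.32 and 7.08 elsewhere. Nearest to Il1r1 were Rabl2 (0.10), Praf2 (0.11) and Sufu (0.13), a negative regulator of Hedgehog signalling, each lowest on WT replicate 1. Nearest to Csf1r were 2010315B03Rik (0.07), Ttc17 (0.08) and Slc35a2 (0.08). With 6 arrays and 8657 genes searched for each, such likeness is a description of these arrays only.

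Ligands of these receptors and of their relatives were mostly dim in LKS+ cells, with 3 of 15 measured at a mean of at least 6. The Apcmin mean was above that of WT for 6 of the 15 and below it for 9, with a median difference of -0.03, and 0 passed in limma (smallest adjusted p 0.954). The sign of that median was not stable, at 0.04 without WT replicate 2, 0.05 after a further quantile normalization and 0.33 over the ligands with a mean of at least 6. The brightest were Clcf1, a gp130 ligand, and Ctf1, cardiotrophin-1. Clcf1 was at 6.84, 6.97 and 7.14 in WT and at 7.20, 7.53 and 7.20 in Apcmin, and each Apcmin array was above each WT array (difference 0.33, limma adjusted p = 0.954). Il1b, which activates Il1r1, was at 4.39, 4.99 and 4.10 in WT and at 3.11, 4.07 and 3.81 in Apcmin, each Apcmin array below each WT array (difference -0.83, limma adjusted p = 0.954). Csf3, the ligand of Csf3r, was near the bottom of the scale (2.52 ± 0.28 in WT and 2.07 ± 0.07 in Apcmin, SD, n = 3). In all, 1 ligand lay higher and 4 lower without overlap, where 2.97% of all genes lay higher and 4.76% lower. Of the genes of unrelated tissues, which are also dim, 28 of 35 had a lower mean in Apcmin.

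Partner receptors, which share chains or families with the 9, had 6 of 13 measured members higher and 7 lower, with a median difference of 0. Kit and Flt3, receptors of stem and progenitor cells, were the brightest and differed by 0.07 and 0.05. Il4ra, the IL-4 receptor chain, differed by -0.30 and Cntfr, a dim gp130 partner, by -0.44, and 0 of the 13 passed in limma. Lifr, Osmr and Il5ra, which pair with gp130 or Csf2rb, were dim at 2.48, 1.55 and 2.68, whereas Il27ra, a further gp130 partner, was at 8.20, and Il1rap, the co-receptor of Il1r1, at 6.32. The first 3 were below the median of 3.09 for unrelated-tissue genes.

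Signalling proteins next to the receptors were bright and close between genotypes. Of 23 measured, 21 had a mean of at least 6, the Apcmin mean was above that of WT for 14 and below it for 9, the median difference was 0.02 and 0 passed in limma. Grb2, an adaptor of growth factor receptors, differed by 0.01, and Ptpn11, which encodes a phosphatase, by -0.05. Jak1, Jak2, Stat3 and Stat5a differed by -0.12, 0.12, 0.00 and 0.05. Gab2, a docking protein, differed by 0.23, and Fgr, a dim Src-family kinase, by 0.77 (limma, adjusted p = 0.954 for both). Of 18 genes that cytokine signals induce, 11 were higher and 7 lower with a median difference of 0.06, and 0 passed. Pim2, a survival kinase downstream of Stat5, was at 6.86, 6.93 and 7.61 in WT and at 7.56, 7.57 and 7.96 in Apcmin (difference 0.56, limma adjusted p = 0.954). WT replicate 3 overlapped the Apcmin values and the other WT arrays lay below them. Socs1, a feedback inhibitor, differed by -0.44 at a dim level, and Fos and Nfkbia, the brightest of the list, by 0.05 and 0.09.

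Transcription factors known to act on myeloid receptor genes had 4 of 9 measured members higher and 5 lower, with a median difference of -0.02 and 0 passing in limma. Spi1 was at 7.41, 7.48 and 7.39 in WT and at 7.38, 7.36 and 7.35 in Apcmin. The groups did not overlap, but the means differed by -0.06 (SE 0.13; limma, adjusted p = 0.966). Cebpa was bright, at 10.56 ± 0.10 (SD, n = 3) and 10.54 ± 0.07. Klf4, a monocyte factor, differed by -0.66 and Irf8, which directs progenitors to monocytes, by -0.31 (limma, adjusted p = 0.954 for both), while Myb and Gata2, the brightest, differed by 0.02 and 0.09. Irf8 was highest on WT replicate 1 (9.33) and lowest on Apcmin replicate 3 (8.47), the same arrays as for Csf1r. Klf4 was also highest on WT replicate 1 (7.18) but lowest on Apcmin replicate 2 (5.77). Of all genes with a mean of at least 6, 18.7% were highest on WT replicate 1 and 14% lowest on Apcmin replicate 3. A link of Irf8 with Csf1r was not tested. Among 12 granulocyte and monocyte progenitor markers, 11 had a lower mean in Apcmin. That share was 57% over all genes and 43.7% over genes with a mean of at least 6. The median difference of the 12 markers was -0.14. The brightest, Mpo and Ctsg, differed by 0.02 and -0.09, and Fcgr2b and Cd14 by -0.66 and -1.02, with 0 of the 12 passing in limma. Cd14 was dim, with a mean of 3.82.

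Markers of other cell types were read from whole lists, and 0 of each list passed in limma. Of the mature neutrophil and macrophage markers 10 of 15 had a lower Apcmin mean (median difference -0.14), of lymphoid markers 13 of 15 (-0.24), of endothelial and stromal markers 9 of 13 (-0.16), of erythroid markers 3 of 8 (0.07) and of megakaryocyte, mast cell and basophil markers 4 of 9 (0.10). The stem and progenitor markers were lower for 3 of 10 (0.06). A lower Apcmin mean was found in 57% of all genes and in 43.7% of genes with a mean of at least 6. Several of the list medians moved with single arrays or with the treatment of dim genes. The stem and progenitor median moved little, from -0.03 to 0.08 when 1 array was left out. The lymphoid and the endothelial and stromal medians were 0 with a floor at a log2 intensity of 4, and the erythroid median ran from -0.10 without WT replicate 3 to 0.39 without Apcmin replicate 2. The mature neutrophil and macrophage median was 0.09 without WT replicate 2, and the megakaryocyte, mast cell and basophil median was -0.23 without WT replicate 1 and -0.20 without Apcmin replicate 3. S100a8 and S100a9, the brightest of the mature myeloid list, differed by -0.05 and -0.07, and Cd68 and Marco, macrophage genes, by -0.20 and -0.48. Dntt, the lymphoid polymerase, and Nkg7, a gene of cytotoxic lymphocytes, differed by -0.07 and -0.34, and Cd3d by -0.72. The widest difference, -2.16 for Prg2, a granule protein gene of eosinophils and basophils, came from values of 6.12, 6.97 and 6.31 in WT and 4.08, 1.94 and 6.90 in Apcmin. Apcmin replicate 3 lay within the WT values and the other Apcmin arrays far below. The part of these markers in the receptor differences was not tested.

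**Figure D4:**
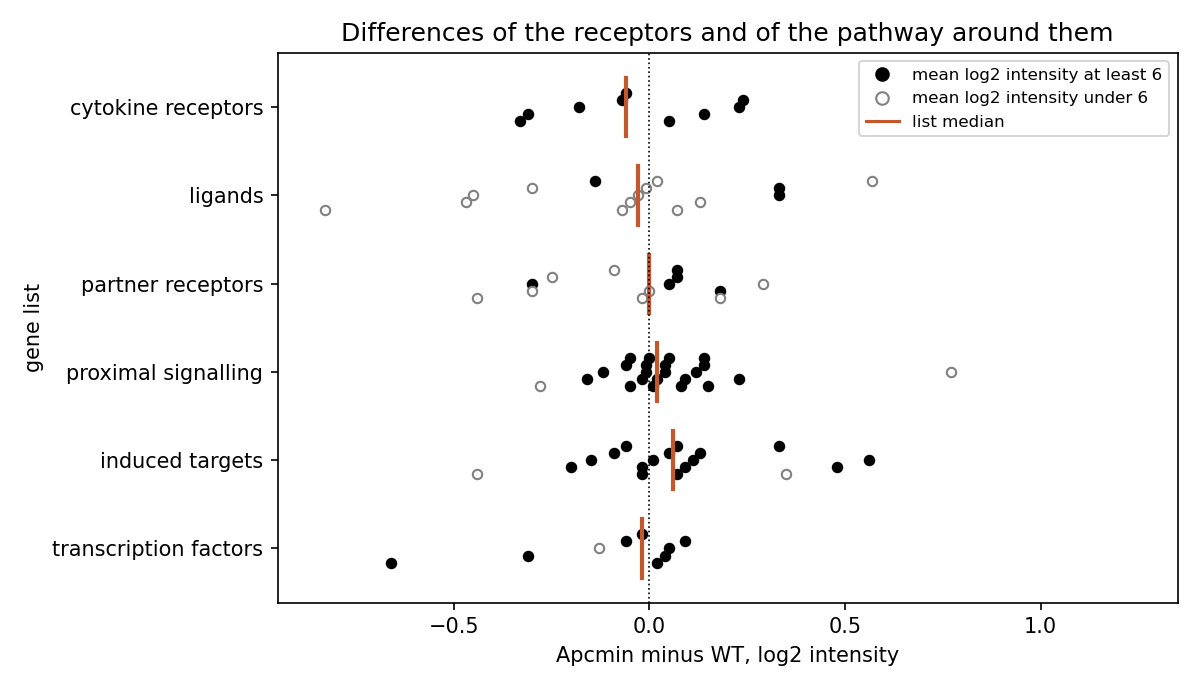
Difference in log2 intensity between Apcmin and WT (horizontal axis) for the genes of 6 lists, the receptors and the 5 lists of their pathway (vertical axis; markers of other cell types are not drawn), with filled points for genes with a mean of at least 6, open points for dimmer genes and a line at the list median. The medians of these 6 lists lie between -0.06 for the cytokine receptors and 0.06 for the induced targets, and the widest differences drawn, in either direction, are those of the dim genes Il1b (-0.83) and Fgr (0.77).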

How the data were processed

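LKS+ cells (at least 20000 per mouse, purity above 90%, per the labels' protocols) were profiled on 6 arrays. The values the authors deposited are intensities on a linear scale, for which the submitters' processing notes name RMA, a method that usually gives log2 values. The RMA version is not given in the sources used here. Log2 was taken with no pseudocount. Of 45101 probe sets, 64 controls were left out. Symbols came from GEO's platform annotation, with 34945 probe sets having 1 symbol, 932 several and 9160 none, and 34741 were matched by Entrez identifier to RefSeq (GRCm38.p6), 0 changed. Apcmin was compared with WT in limma 3.58.1 under R 4.3.3 (lmFit, eBayes, genotype only), with Benjamini-Hochberg adjustment over 45037 probe sets at 0.05. The step was tested on simulated data. No depth applies to arrays, and their number limits the precision.

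The receptors and the gene lists were chosen with earlier results of these data known, so list counts carry no test. Named genes are the 9 receptors and, of each list, up to 4 genes from the 2 brightest and the 2 with the smallest p. Not every list's full set is printed. Other list genes named (among them Spi1, Cebpa, Epor, Il27ra, Il1rap, Lifr, Osmr, Il5ra, Itgam, Camp, Ngp, Adgre1, Vcam1, Cd79b and the Jak and Stat genes) were chosen after their values were seen. Alternatives were filters, a floor, quantile normalization, a variance trend, array weights, a replicate block, all probe sets of a gene and leaving out each array.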

Additional observations from a re-analysis of the deposited data

How the results depend on the processing

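No probe set passed the adjusted threshold in limma in any alternative run, with 0 throughout and between 486 and 5864 at an unadjusted p under 0.05. The highest of these came without WT replicate 3, against 1714 with all arrays. Of the 9 receptors, 4 (Csf2ra, Csf2rb, Csf3r and Il6ra) kept their sign in all 14 alternatives and 5 did not. Il3ra turned to -0.02 with a further quantile normalization, Csf2rb2 to 0.09 with array weights and Il6st to 0.09 with the mean of all probe sets. Leaving out each array gave -0.34 to 0.04 for Csf1r, -0.38 to 0.40 for Csf2rb2, -0.14 to 0.20 for Il3ra and -0.14 to 0.57 for Il1r1. The others ranged over 0.07 to 0.43 (Csf2ra), -0.15 to -0.02 (Csf2rb), 0.05 to 0.27 (Csf3r), -0.41 to -0.16 (Il6ra) and -0.47 to -0.16 (Il6st). WT replicate 1 accounted for 4 of these reversals. The cause was not tested. The number of receptors with a lower mean ranged from 4 to 6 over those sets of 5 arrays, and their median difference from -0.15 to 0.06. With the replicate block 0 probe sets passed, the differences were as without it (-0.33 for Il6st) and the adjusted p of Il6st was 0.998. The deviations of same-numbered arrays from their group means had correlations of -0.047, -0.073 and -0.228. Other pairings of a WT with an Apcmin array reached 0.173. With so few arrays, these values cannot decide whether same-numbered arrays were handled together. The smallest adjusted p of a receptor in any alternative was 0.371, for Csf2ra without WT replicate 3.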
